A study of Mus musculus with 16 samples.

Results

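The data bear on which genes responded differently to doxorubicin in ES cells with and without Cfp1. The contrast was the treated minus untreated difference in Cfp1-/- cells less the same difference in WT cells, called the interaction here and given on the log2 scale. It used every deposited sample, 16 of 16. These were 2 technical replicates of each of 8 biological replicates, and the technical replicates were summed to 8 libraries. Untreated WT cells (the E14Tg2a line, strain 129/OLA), WT cells given doxorubicin for 6 hours, untreated Cfp1-/- cells (labelled with the same strain) and Cfp1-/- cells given doxorubicin for 6 hours had n = 2 libraries each. The protocol gives the dose as 1 μM, while the treatment label reads 1 mM. All cells were grown on gelatin in serum with LIF. The labels name no clone and no rescued line for the Cfp1-/- samples, so loss of Cfp1 and any other difference between the cell lines cannot be told apart. No source states that the replicates came from separate cultures, so p-values measure the spread between these libraries only.

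Cfp1, encoded by Cxxc1, is a CXXC zinc finger protein that binds unmethylated CpG dinucleotides and brings the Set1 complex, which trimethylates lysine 4 of histone H3, to CpG-rich promoters. Doxorubicin is an anthracycline that poisons topoisomerase II and breaks DNA. Breaks stabilise p53, a transcription factor that raises cell cycle inhibitors and death genes, and in ES cells doxorubicin also lowers pluripotency genes. An interaction arises when the lines start at different levels, when they end at different levels, or both. Each called gene was therefore sorted by whether the lines differed without doxorubicin (untreated level), with it (treated level), or in both states.

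The labels held for the targeted gene. Cxxc1 had normalized counts of 1199 and 1164 in untreated WT, 807 and 876 in treated WT, 3.71 and 2.54 in untreated Cfp1-/- and 5.11 and 0.964 in treated Cfp1-/- cells. A normalized count is the summed count of a library divided by the authors' size factor. The total count per library ranged from 14880589 to 29422711. All 10 ES cell markers were present in every library, from 266 counts upwards. Markers of other cells were also present. The primitive endoderm markers summed to 984 to 2135 normalized counts in WT and 4501 to 9796 in Cfp1-/- libraries. Most of it came from Lama1, a laminin chain, at up to 11376 counts. Of the other markers of this set, Gata4, Gata6, Sox17 and Sox7 had at most 44 counts in any library. Dab2 had 62 to 347 counts, with 87.8 to 190.8 normalized counts in WT and 59.8 to 321.7 in Cfp1-/- libraries. A second entry named Dab2 had 0 counts in every library. The neuron markers, led by Stmn2, summed to 5133 to 5425 in WT and 3082 to 4127 in Cfp1-/- libraries. They did not move as a set. Stmn2 was at 3339 to 4106 in WT and 1160 to 1945 in Cfp1-/- libraries. Tubb3 went the other way, at 837 to 959 in WT and 1280 to 1994 in Cfp1-/- libraries. The trophectoderm markers summed to 90.9 to 507 in WT and 108 to 473 in Cfp1-/- libraries. The part of these markers in the results was not tested. One run stood apart. The second technical replicate of treated Cfp1-/- replicate 1 had lost counts on chromosome 19 from position 5849702 onwards and on X and Y. There, 439 of 529 genes that reached 200 counts in the paired run were at 0. Elsewhere 0 of 7791 such genes were. Results are given with and without this run. Outside the lost region the paired runs of treated Cfp1-/- replicate 1 and of treated WT replicate 1 still differed beyond sampling noise. Their chi-square values divided by the degrees of freedom were 15.6 and 9.61, and those of the other 6 pairs 0.999 to 1.05. The fits without the affected run changed treated Cfp1-/- replicate 1 only. They kept both runs of treated WT replicate 1, so the lines were not handled alike there. Hprt, the purine salvage gene on X, was named after its values were seen. Its normalized counts were 34.8 and 42.7 in untreated WT, 21 and 15.8 in treated WT, 3461 and 3532 in untreated Cfp1-/- and 2754 and 4669.7 in treated Cfp1-/- cells. The lines thus differed in the RNA of a gene other than Cxxc1, and whether the gene itself differed was not tested. Hprt lies in the lost region, so the value of treated Cfp1-/- replicate 1 is too low. In a fit with the replicate number as a block and without this run, Hprt differed between the lines by 6.53 without and 7.95 with doxorubicin on the log2 scale, and its interaction was 1.42 (adjusted p = 0.0239 from edgeR with the block and without the run, 0.402 with neither). The WT side of this interaction rests on few counts, so it does not show that Hprt responded differently to doxorubicin.

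For the gene with the most positive and the most negative interaction in each class, the 250 bases before the annotated start are shown, read 5′ to 3′ from NCBIM37, the build of the count tables. CG dinucleotides, which the CXXC domain of Cfp1 recognises, are in capitals. The windows lie at chr17:83614373-83614622 (plus strand, 36 CG) for Pkdcc and chr6:54922607-54922856 (minus strand, 12 CG) for Nod1 in the untreated level class. In the class of both they lie at chr9:45178018-45178267 (plus strand, 5 CG) for Fxyd6 and chr7:105268035-105268284 (minus strand, 5 CG) for Myo7a. In the treated level class they lie at chr8:23276908-23277157 (minus strand, 6 CG) for Nek3 and chr15:85689887-85690136 (plus strand, 11 CG) for Gtse1.
Pkdcc: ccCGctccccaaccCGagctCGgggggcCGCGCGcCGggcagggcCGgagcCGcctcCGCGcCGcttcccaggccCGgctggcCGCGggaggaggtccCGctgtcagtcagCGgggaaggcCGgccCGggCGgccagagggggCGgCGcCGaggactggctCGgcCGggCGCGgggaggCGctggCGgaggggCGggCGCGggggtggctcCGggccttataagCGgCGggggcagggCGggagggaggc
Nod1: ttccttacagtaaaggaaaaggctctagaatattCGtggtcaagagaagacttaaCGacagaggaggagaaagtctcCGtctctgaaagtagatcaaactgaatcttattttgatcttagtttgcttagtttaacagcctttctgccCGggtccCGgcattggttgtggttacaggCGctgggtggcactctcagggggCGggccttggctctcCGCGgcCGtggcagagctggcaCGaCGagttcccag
Fxyd6: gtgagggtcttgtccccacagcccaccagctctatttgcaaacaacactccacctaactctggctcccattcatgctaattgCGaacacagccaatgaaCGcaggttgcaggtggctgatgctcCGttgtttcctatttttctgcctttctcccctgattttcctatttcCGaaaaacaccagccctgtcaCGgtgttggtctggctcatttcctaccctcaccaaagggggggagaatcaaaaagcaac
Myo7a: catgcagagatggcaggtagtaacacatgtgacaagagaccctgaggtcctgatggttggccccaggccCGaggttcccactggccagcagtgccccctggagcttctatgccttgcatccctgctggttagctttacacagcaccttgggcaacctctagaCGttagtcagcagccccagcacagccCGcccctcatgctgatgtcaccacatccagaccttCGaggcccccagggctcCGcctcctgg
Nek3: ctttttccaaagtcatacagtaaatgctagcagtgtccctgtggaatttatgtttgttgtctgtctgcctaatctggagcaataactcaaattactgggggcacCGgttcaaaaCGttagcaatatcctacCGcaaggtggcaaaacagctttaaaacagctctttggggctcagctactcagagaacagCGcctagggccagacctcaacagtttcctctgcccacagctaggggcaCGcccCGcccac
Gtse1: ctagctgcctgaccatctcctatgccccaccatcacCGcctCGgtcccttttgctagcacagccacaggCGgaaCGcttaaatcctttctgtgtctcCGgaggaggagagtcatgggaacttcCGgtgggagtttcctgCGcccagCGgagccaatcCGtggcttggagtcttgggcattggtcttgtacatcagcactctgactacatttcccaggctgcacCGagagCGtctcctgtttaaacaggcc
Pkdcc had 36 CG in this window and the other 5 genes had 5 to 12, against a median of 13 over the 15758 tested genes with a full window. Among these 6 genes, CG content did not order the classes.

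edgeR's quasi-likelihood test called the interaction of 37 of 15758 tested genes (0.235%) at an adjusted p-value under 0.05, 18 above 0 (0.114%) and 19 below 0 (0.121%). At an unadjusted p-value under 0.05 there were 1671 genes (10.6%). With the replicate number as a block, which assumes that same-numbered libraries were paired, 243 genes were called (1.54%), and these included all 37. Without the affected run 39 were called (0.247%), 34 of them among the 37. With the block and without the run 352 were called (2.23%), 152 above 0 (0.964%) and 200 below 0 (1.27%), again with all 37 among them. DESeq2's Wald test called 220 genes, the 37 included. The calls rested on having both libraries of each group. With any 1 library left out, fewer genes were called than with all 8, and in some of these fits not all of them were among the 37. In these fits the remaining library of the group was assumed to vary like the other groups. All 37 interactions kept their sign in all 8 fits, 21 of the genes were called in none of them, and Myo7a was called in 5. Just inside the threshold lay Pkdcc, Myo3b, Plxnc1, Nucb1 and Pitpnc1, each with an adjusted p = 0.0497 from edgeR, and just outside it lay Egr1, at 0.0547.

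Of the 37 genes, 16 differed between the lines only without doxorubicin by this sorting, 4 only with it, 17 in both states and 0 in neither. Among all tested genes, 34% were called between the untreated lines and 25.9% between the treated lines by edgeR's test (5362 and 4074 genes). Among the 17, the difference had narrowed with treatment in 13, widened in 2 (Mycn and Znrf3) and crossed to the opposite sign in 2 (Tex15 and Cd68). The treated difference was smaller than the untreated one in 30 of the 37 genes (81.1%), against 9408 of all tested genes (59.7%). The median absolute difference of the 37 was 2.24 without and 0.656 with doxorubicin on the log2 scale. The interaction and both level differences use the same libraries, so the sorting describes the genes and is no separate test. Sorted by the fit with the block and without the run, 151 of 352 genes were of the untreated level class, 57 of the treated level class and 144 of both, of which 88 narrowed, 9 widened and 47 crossed. In that fit 45.4% of tested genes differed between the untreated and 38.9% between the treated lines. It moved 3 of the 37 genes, Zfp750, Xaf1 and Tbc1d9, from the untreated level class to both, since their treated differences then passed the threshold. With both states judged by a difference of at least 1 on the log2 scale instead, the 37 genes fell into 25 of untreated level, 5 of treated level, 5 of both and 2 of neither.

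**Figure D1:**
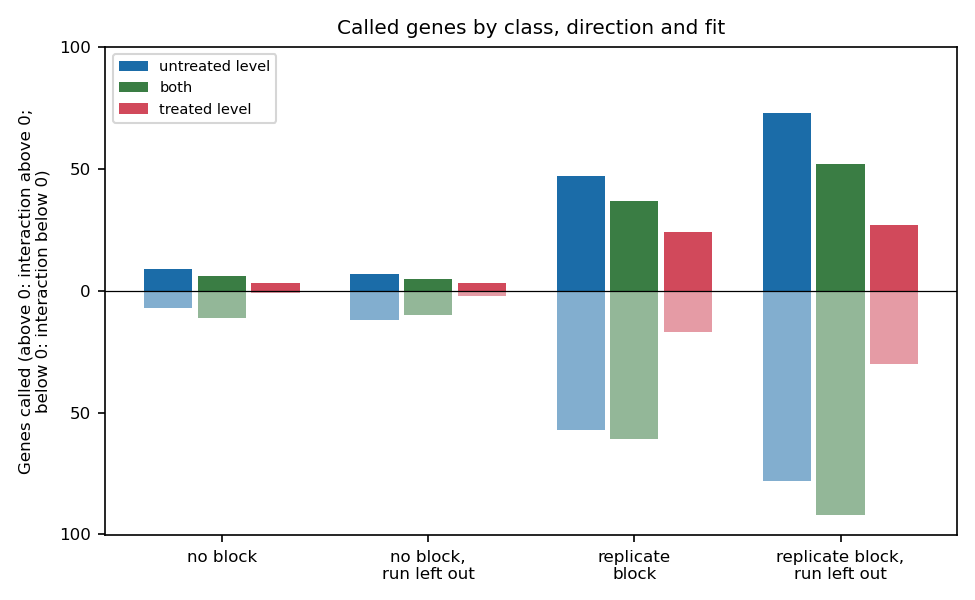
Number of genes called for the interaction (vertical axis) in 4 fits, split by class; bars above the line count genes with an interaction above 0 and bars below it those with an interaction below 0. Calls rise from 37 with no block to 352 with the block and the affected run left out, and the treated level class has the fewest genes in all 4 fits.

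**Figure D2:**
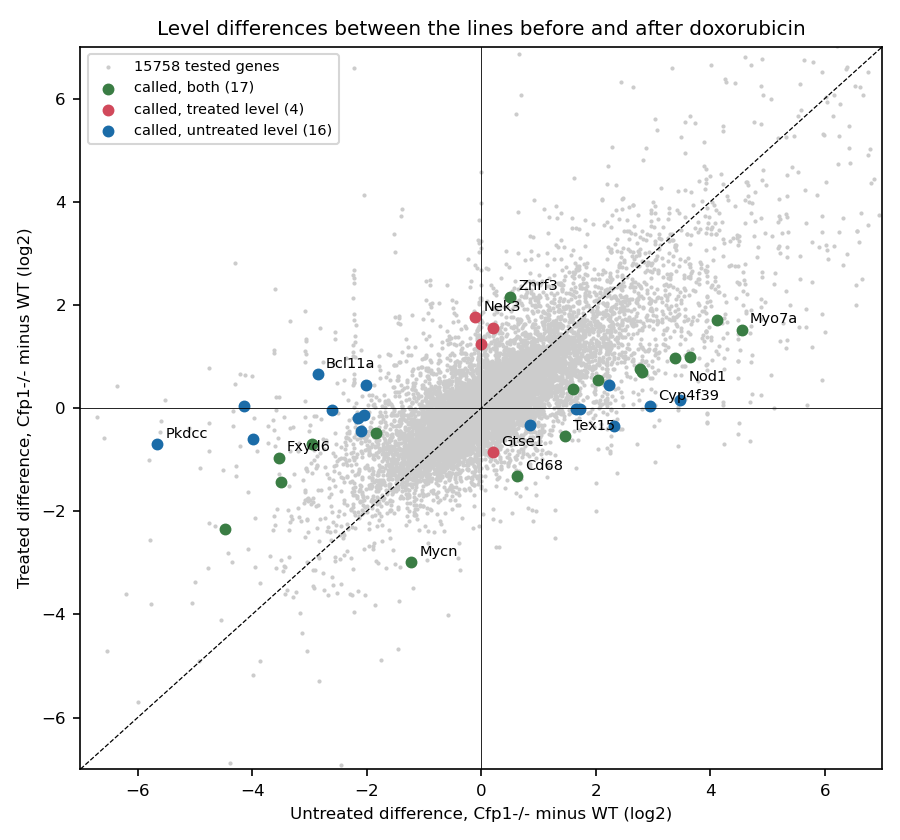
Difference between Cfp1-/- and WT cells (log2) without doxorubicin, on the horizontal axis, and with it, on the vertical axis, for tested genes (grey; 59 lie outside the axes) and the 37 called genes (coloured by class, n = 2 libraries per group). On the dashed line the difference is the same in both states; the untreated level genes lie closer to 0 with treatment than without, and Mycn and Znrf3 lie farther from 0 with treatment than without.

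Genes of the untreated level class with a negative interaction were higher in Cfp1-/- cells before treatment, and no difference between the treated lines was called. There were 7, and 6 of them rose in both lines or in WT cells alone. Cyp4f39 (ENSMUSG00000061126, chr17:32605404-32630265), a cytochrome P450 that hydroxylates very long fatty acids of the skin barrier, had normalized counts of 15.3 and 13.6 in untreated WT, 1141 and 1482 in treated WT, 122 and 98.9 in untreated Cfp1-/- and 1049.9 and 1602 in treated Cfp1-/- cells. The untreated groups were far apart and the treated groups overlapped. Its interaction was -2.91 (standard error 0.393, adjusted p = 0.0317 from edgeR, 0.0031 with the replicate block), from a rise of 6.53 in WT and 3.62 in Cfp1-/- cells. Nod1 (ENSMUSG00000038058, chr6:54873936-54922606), an intracellular receptor for bacterial peptidoglycan, had normalized counts of 25.5 and 43.8 in untreated WT, 81.2 and 86.6 in treated WT, 336 and 415 in untreated Cfp1-/- and 88.8 and 95.4 in treated Cfp1-/- cells. It rose by 1.33 in WT cells and fell by 1.98 in Cfp1-/- cells, so that the treated groups lay close together. Its interaction was -3.32 (standard error 0.413, adjusted p = 0.0317 from edgeR, 0.0023 with the replicate block).

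The other 5 genes of this kind had interactions from -2.66 to -1.17. Scn3b, an accessory subunit of voltage-gated sodium channels, went from 73.9 and 79.2 to 3551 and 3019.8 normalized counts in WT and from 264 and 232 to 3074 and 3339 in Cfp1-/- cells. Treated levels of the lines overlapped and untreated levels did not. Zfp750, a transcription factor of epidermal differentiation, went from 55.2 and 38.6 to 1636 and 1139.7 in WT and from 260.5 and 202 to 1157 and 993 in Cfp1-/- cells. Xaf1, which antagonises the caspase inhibitor XIAP, Arntl2, a clock transcription factor, and Nucb1, a calcium-binding protein of the Golgi, had untreated differences of 2.24, 1.66 and 0.85 and treated differences of 0.45, -0.02 and -0.32 on the log2 scale.

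The 9 untreated level genes with a positive interaction started lower in Cfp1-/- cells and rose there with doxorubicin, while in WT cells 5 of them fell, 2 rose less and 2 were not called. Pkdcc (ENSMUSG00000024247, chr17:83614623-83624410), a secreted tyrosine kinase needed for skeletal growth, had the largest interaction of the 37. Its normalized counts were 127 and 344 in untreated WT, 169 and 317 in treated WT, 4.64 and 4.23 in untreated Cfp1-/- and 162 and 132 in treated Cfp1-/- cells. Only the untreated Cfp1-/- libraries stood far apart, and the replicates of each WT group lay well apart from each other. The interaction was 4.96 (standard error 0.789, adjusted p = 0.0497 from edgeR, 0.00364 with the replicate block), and 4.88 without the affected run, where it was not called (adjusted p = 0.0516 from edgeR). Pdzd2 and Pitpnc1 were not called without that run either (adjusted p = 0.058 and 0.0617 from edgeR), and all 3 were called once the block was added.

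Bcl11a (ENSMUSG00000000861, chr11:23978056-24074123), a zinc finger repressor of fetal globin genes that also acts in lymphoid and neural development, had normalized counts of 464 and 442 in untreated WT, 62.9 and 87.7 in treated WT, 45.4 and 76.9 in untreated Cfp1-/- and 122 and 113 in treated Cfp1-/- cells. It was high only in untreated WT cells. Doxorubicin lowered it there by 2.53 on the log2 scale and raised it by 0.98 in Cfp1-/- cells, an interaction of 3.51 (standard error 0.412, adjusted p = 0.0317 from edgeR, 0.00195 with the replicate block). Rfx4, a transcription factor of neural and ciliary genes, followed the same course, with normalized counts of 207 and 154 in untreated WT, 82.5 and 58.1 in treated WT, 10.2 and 11.8 in untreated Cfp1-/- and 39.8 and 51.1 in treated Cfp1-/- cells. Its interaction was 3.40 (standard error 0.488, adjusted p = 0.0338 from edgeR, 0.00528 with the replicate block). Myo3b, a myosin with a kinase domain, had few counts: 57.8 and 74 in untreated WT, 17 and 29.6 in treated WT, 3.71 and 3.38 in untreated Cfp1-/- and 19.4 and 28 in treated Cfp1-/- cells. The treated lines overlapped, and the interaction was 4.17 (standard error 0.669, adjusted p = 0.0497 from edgeR, 0.00742 with the replicate block).

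The remaining positive genes of the class were Plxnc1, a semaphorin receptor, Catsperg1, a subunit of the sperm calcium channel, Pdzd2, a PDZ domain protein, Mctp2, a membrane protein with C2 domains, and Tbc1d9, with a Rab GTPase-activating domain. Their interactions lay between 1.65 and 2.56. Catsperg1 has a near-identical neighbour, Catsperg2, so reads shared by both genes may be missing from its counts. Its own counts rose in both lines, from 119.8 and 139.7 to 313 and 252 in WT and from 35.2 and 27.9 to 376 and 381 in Cfp1-/- cells. Mctp2 and Tbc1d9 fell in WT cells by 0.54 and 0.73 on the log2 scale and rose in Cfp1-/- cells by 1.37 and 0.91.

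**Figure D3:**
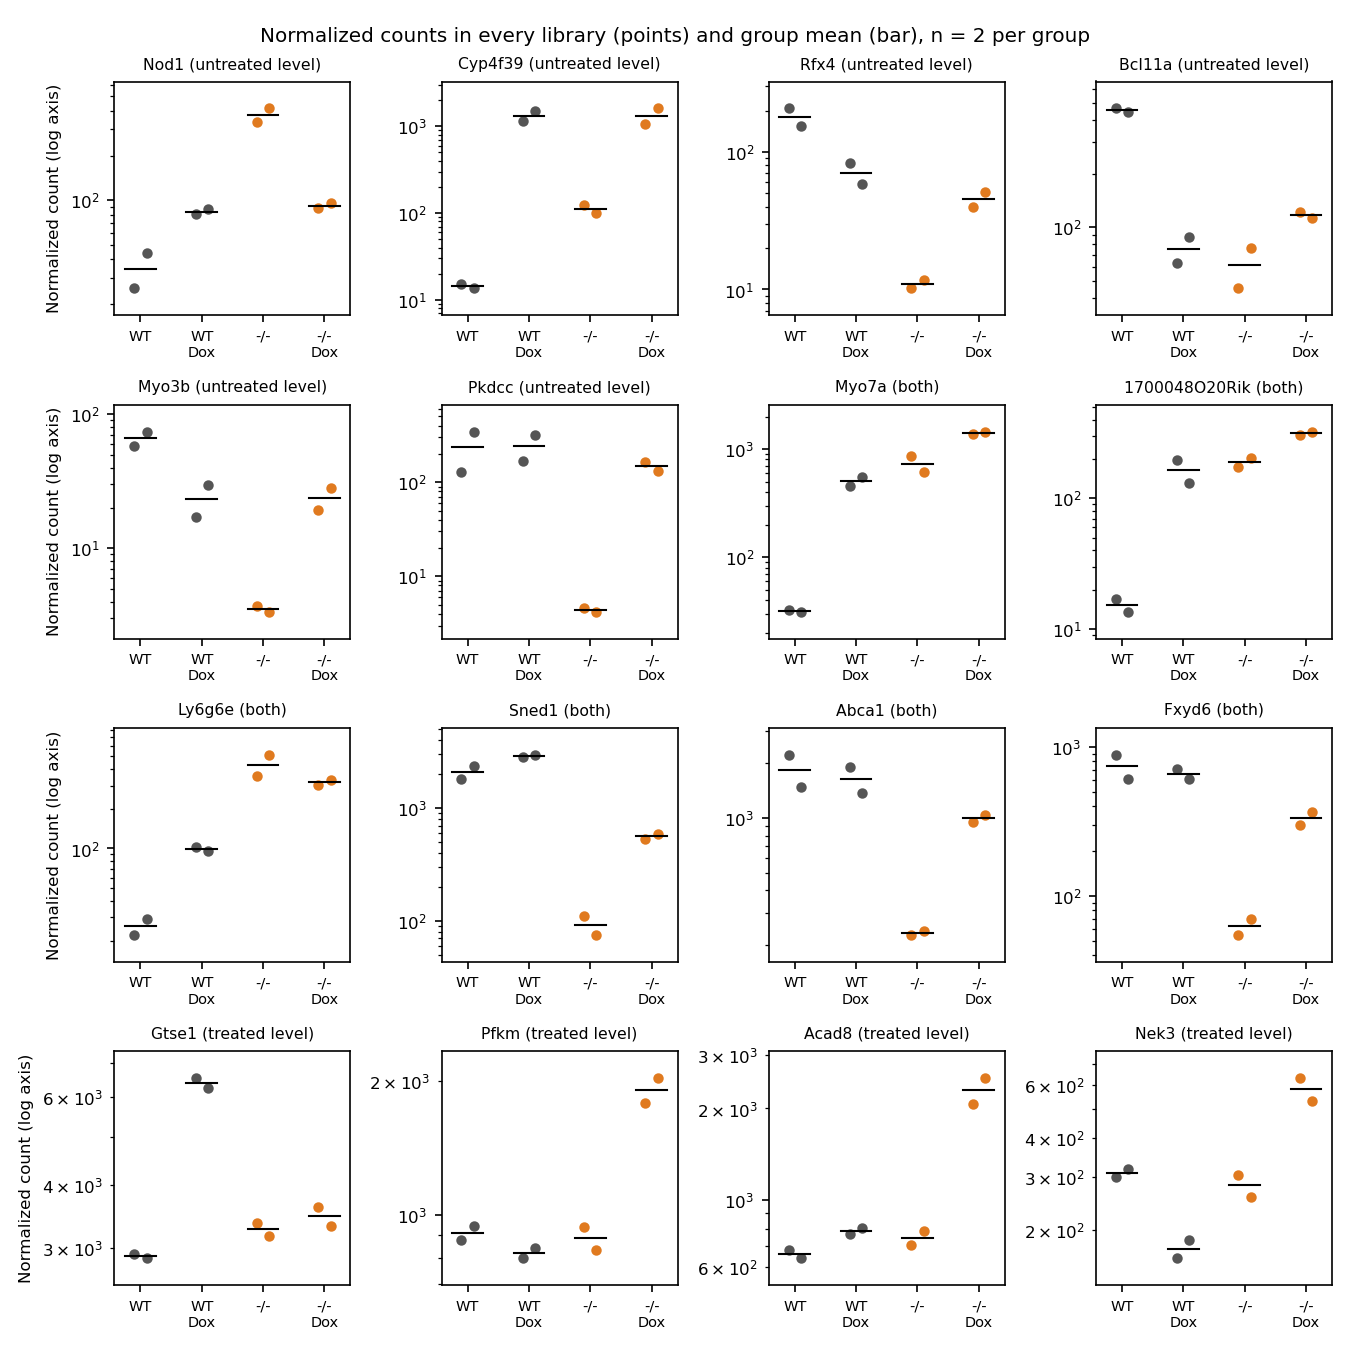
Normalized counts (log axis) of 16 genes in each of the 8 libraries; points are libraries, bars are group means of n = 2, grey is WT and orange is Cfp1-/-, each untreated and with doxorubicin (Dox). In the untreated level genes the lines lie farther apart without doxorubicin than with it, and in the treated level genes the reverse holds, as for Gtse1, at 2862 to 3359 normalized counts in the untreated libraries of both lines.

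In the class of both, 8 genes with a negative interaction started higher in Cfp1-/- cells and stayed higher, with a smaller gap. Myo7a (ENSMUSG00000030761, chr7:105199570-105268034), the unconventional myosin of inner ear hair cells, had normalized counts of 32.3 and 31.3 in untreated WT, 453 and 549 in treated WT, 857 and 609 in untreated Cfp1-/- and 1378 and 1446 in treated Cfp1-/- cells. Untreated Cfp1-/- libraries already lay above the treated WT libraries. Its interaction was -3.03 (standard error 0.303, adjusted p = 0.019 from edgeR, 0.00151 with the replicate block), with differences between the lines of 4.55 without and 1.52 with treatment. 1700048O20Rik had normalized counts of 17 and 13.6 in untreated WT, 195 and 132 in treated WT, 174 and 204 in untreated Cfp1-/- and 307 and 324 in treated Cfp1-/- cells, and an interaction of -2.66 (standard error 0.394, adjusted p = 0.0401 from edgeR, 0.00582 with the replicate block). Ly6g6e, a member of the Ly6 family of surface proteins, had normalized counts of 22.1 and 29.2 in untreated WT, 102 and 95.1 in treated WT, 352 and 513 in untreated Cfp1-/- and 303 and 332 in treated Cfp1-/- cells. It rose by 1.99 in WT cells while its response in Cfp1-/- cells was -0.40 and was not called (adjusted p = 0.182 from edgeR). The interaction of Ly6g6e was -2.40 (standard error 0.369, adjusted p = 0.0469 from edgeR, 0.00533 with the replicate block).

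Galnt6, which starts O-glycosylation of mucins, Sdc4, a heparan sulfate proteoglycan, Epb4.1l4b, a FERM domain protein, Ankrd35, an ankyrin repeat protein, and Ablim1, which binds actin, made up the rest of these 8. Galnt6 went from 178 and 155 to 2569 and 1971 normalized counts in WT and from 1088 and 1161 to 3729.6 and 3807 in Cfp1-/- cells, an interaction of -2.02. Sdc4 was the most abundant, at 1412 and 1481 in untreated and 7592 and 7871 in treated WT libraries, and in Cfp1-/- cells it rose from 4262 and 4333 to 9814 and 9868. Ablim1 was the only one of the 37 within the lost region. Its interaction was -2.42 with the affected run and -2.16 without it, called in both fits.

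The 5 genes of this class with a positive interaction and a narrowed gap were lower in Cfp1-/- cells in both states. Fxyd6 (ENSMUSG00000066705, chr9:45178268-45204241), a regulator of the sodium pump, had normalized counts of 880.0 and 604 in untreated WT, 705 and 606 in treated WT, 54.7 and 70.1 in untreated Cfp1-/- and 298 and 362 in treated Cfp1-/- cells. The WT groups overlapped, and the rise in Cfp1-/- cells ended below them. Its interaction was 2.58 (standard error 0.333, adjusted p = 0.0317 from edgeR, 0.0031 with the replicate block). Abca1, which exports cholesterol to lipoproteins, had normalized counts of 2217 and 1471 in untreated WT, 1914 and 1372 in treated WT, 228 and 238 in untreated Cfp1-/- and 952 and 1041 in treated Cfp1-/- cells, and an interaction of 2.26 (standard error 0.312, adjusted p = 0.0317 from edgeR, 0.0028 with the replicate block). Sned1, an extracellular matrix protein, had normalized counts of 1805 and 2384 in untreated WT, 2822 and 2968 in treated WT, 110.3 and 75.2 in untreated Cfp1-/- and 533 and 591 in treated Cfp1-/- cells. Here treated Cfp1-/- libraries lay far below both WT groups. Its interaction was 2.13 (standard error 0.282, adjusted p = 0.0317 from edgeR, 0.0031 with the replicate block).

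Pitpnc1, a phosphatidylinositol transfer protein, rose from 584 and 537 to 1642 and 2006 normalized counts in Cfp1-/- cells and was at 2232 and 1870.2 in untreated and 2755 and 2435 in treated WT libraries. Sfmbt2, a Polycomb group gene, was the 1 gene with a positive interaction that fell in both lines. It went from 4698 and 6776 to 579 and 704 in WT and from 552 and 450.4 to 251 and 216 in Cfp1-/- cells. Untreated Cfp1-/- libraries were already below the treated WT libraries.

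In 2 genes the gap widened. Mycn, which encodes the transcription factor n-Myc, had normalized counts of 4728 and 5754 in untreated WT, 924 and 1204 in treated WT, 1856 and 2551 in untreated Cfp1-/- and 133 and 131 in treated Cfp1-/- cells. It fell in both lines and lay lower in Cfp1-/- cells in both states, by 1.22 without and 2.99 with doxorubicin on the log2 scale. Znrf3, a ubiquitin ligase that removes Wnt receptors from the cell surface, had normalized counts of 812 and 712 in untreated WT, 782 and 836 in treated WT, 1111 and 996 in untreated Cfp1-/- and 3245 and 3848 in treated Cfp1-/- cells. The WT groups overlapped, and Cfp1-/- libraries rose by 1.79. The interactions were 1.66 (standard error 0.205, adjusted p = 0.0317 from edgeR, 0.0031 with the replicate block) for Znrf3 and -1.76 (standard error 0.277, adjusted p = 0.0489 from edgeR, 0.0028 with the replicate block) for Mycn.

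In 2 genes the lines crossed. Tex15, needed for meiotic recombination and for silencing of retrotransposons in germ cells, had normalized counts of 1006 and 1187 in untreated WT, 6561 and 8118 in treated WT, 2989.8 and 2919.9 in untreated Cfp1-/- and 5032 and 4789 in treated Cfp1-/- cells. Cfp1-/- cells started higher by 1.46 and ended lower by 0.55, an interaction of -2.01 (standard error 0.204, adjusted p = 0.019 from edgeR, 0.00103 with the replicate block). Cd68, a lysosomal glycoprotein abundant in macrophages, had normalized counts of 166 and 143 in untreated WT, 435 and 404 in treated WT, 223 and 242 in untreated Cfp1-/- and 143 and 187 in treated Cfp1-/- cells. It rose in WT cells, and its response in Cfp1-/- cells was -0.45 and was not called (adjusted p = 0.105 from edgeR). The interaction of Cd68 was -1.94 (standard error 0.301, adjusted p = 0.0475 from edgeR, 0.00742 with the replicate block). Without the affected run its untreated difference was no longer called, which placed it in the treated level class, and Ankrd35 moved from both to the untreated level class.

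The treated level class held 4 genes. Gtse1 (ENSMUSG00000022385, chr15:85690137-85707002), a p53 target that binds microtubules and restrains p53, had normalized counts of 2912 and 2862 in untreated WT, 6535 and 6259 in treated WT, 3359 and 3173 in untreated Cfp1-/- and 3623 and 3316 in treated Cfp1-/- cells. The 6 other libraries lay below both treated WT libraries. It rose by 1.19 in WT cells, and its response in Cfp1-/- cells was 0.13 and was not called (adjusted p = 0.391 from edgeR). Its interaction was -1.06 (standard error 0.167, adjusted p = 0.0489 from edgeR, 0.00567 with the replicate block). The other 3 had a positive interaction. Pfkm, the muscle phosphofructokinase of glycolysis, had normalized counts of 879 and 943 in untreated WT, 799 and 842 in treated WT, 939 and 834 in untreated Cfp1-/- and 1790.3 and 2033 in treated Cfp1-/- cells. Acad8, an isobutyryl-CoA dehydrogenase of valine breakdown, had 679.5 and 641 in untreated WT, 770.2 and 808 in treated WT, 708 and 788 in untreated Cfp1-/- and 2074 and 2517 in treated Cfp1-/- cells. Both were high only in treated Cfp1-/- cells, with interactions of 1.26 (standard error 0.198, adjusted p = 0.0494 from edgeR, 0.00818 with the replicate block) and 1.36 (standard error 0.205, adjusted p = 0.043 from edgeR, 0.00531 with the replicate block). Nek3, a kinase of the NIMA family, had normalized counts of 298 and 318 in untreated WT, 162 and 186 in treated WT, 303 and 258 in untreated Cfp1-/- and 629 and 528 in treated Cfp1-/- cells. It fell in WT and rose in Cfp1-/- cells, an interaction of 1.86 (standard error 0.276, adjusted p = 0.0401 from edgeR, 0.00541 with the replicate block).

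Sorted by the responses themselves, 15 of the 37 genes rose in both lines, 12 of them less in Cfp1-/- cells. Another 8 rose only in Cfp1-/- cells by the threshold, 5 only in WT cells, 6 fell in WT and rose in Cfp1-/- cells, 1 (Nod1) did the opposite, and 2 (Mycn and Sfmbt2) fell in both. Of all tested genes, edgeR called a response in 48.3% in WT and 48.8% in Cfp1-/- cells. With the block and without the run, 129 of the 352 genes rose in both lines, 91 of them less in Cfp1-/- cells, and 43 fell in both, 27 of them less in Cfp1-/- cells. Opposite responses were called in 44 genes, 21 that fell in WT and rose in Cfp1-/- cells and 23 that did the reverse. The background in that fit was 57.2% in WT and 56.8% in Cfp1-/- cells.

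**Figure D4:**
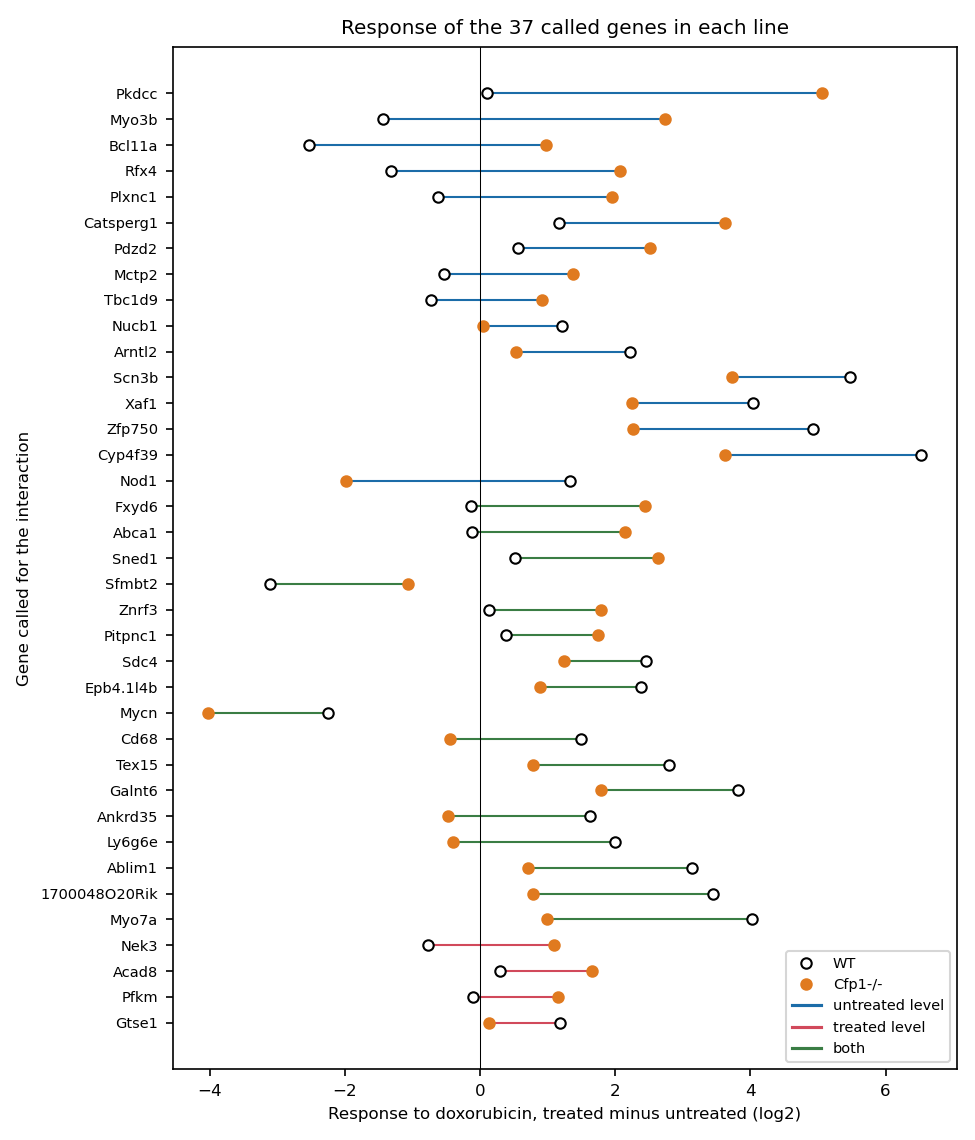
Response to doxorubicin (log2, treated minus untreated) of the 37 called genes in WT (open circles) and Cfp1-/- cells (filled circles), joined by a line coloured by class, from edgeR with n = 2 libraries per group. Pkdcc has the widest gap, at 0.10 in WT and 5.06 in Cfp1-/- cells, and Mycn and Sfmbt2 are the genes that fell in both lines.

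The fit with block, run left out, added 315 genes to the 37. Of its 352 genes, the 8 with the largest interaction at a mean of at least 200 normalized counts are named for each class and direction, with interactions and p-values of that fit and library values of all runs. In the untreated level class, 8 genes lay above 0. Among them, Wt1, a transcription factor of kidney and gonad, Egfr, the epidermal growth factor receptor, Tgfb2, a TGF-β ligand, Itga8, an integrin chain, and Arhgef10 had interactions of 1.95, 1.69, 1.71, 1.53 and 1.61 (adjusted p = 0.00941 to 0.0453 from edgeR). Egfr went from 396 and 838 to 1488 and 1889 normalized counts in WT and from 214 and 178 to 1674 and 2009 in Cfp1-/- cells, so the untreated lines did not overlap and the treated lines did. The other 3 of these 8 were Catsperg1, Mctp2 and Pdzd2.

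Below 0 in the untreated level class stood Cyp4f39, Arhgef33, Egr1, Laptm5, Zfp658, Trpm6, Sarm1 and Scn3b. Egr1, a growth factor-induced zinc finger transcription factor, had normalized counts of 233 and 377 in untreated WT, 1116 and 821 in treated WT, 1148 and 1374 in untreated Cfp1-/- and 999.8 and 964 in treated Cfp1-/- cells. Only untreated WT libraries were low. Its interaction was -2.17 (adjusted p = 0.00275 from edgeR with the block and without the run, 0.0547 with neither). Laptm5, a lysosomal protein of blood cells, had normalized counts of 222 and 134 in untreated WT, 884 and 508 in treated WT, 798 and 506 in untreated Cfp1-/- and 709.8 and 589 in treated Cfp1-/- cells. In Sarm1, an NAD-cleaving enzyme of axon degeneration, the lines differed by 1.81 without and -0.02 with doxorubicin. Arhgef33 and Trpm6, a magnesium channel in the lost region, had interactions of -2.32 and -1.83. The value of Zfp658, -1.95, is less certain, since zinc finger genes of this kind share sequence.

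In the class of both, the 8 genes above 0 were Fxyd6, Abca1, Sned1, Sfmbt2, F5, Tbc1d9, Ntn1 and Znrf3. F5, coagulation factor V, and Ntn1, the axon guidance ligand netrin, had interactions of 1.91 and 1.65 (adjusted p = 0.0337 and 0.0451 from edgeR). Ntn1 fell in WT libraries, from 1119.5 and 639 to 495 and 254 normalized counts, and was at 113 and 122 in untreated and 174 and 167 in treated Cfp1-/- libraries. Below 0 stood Myo7a, Slc26a9, Zfp750, Ttll6, Usp29, Slc6a13, Ly6g6e and Cd80. Slc26a9, an anion transporter, had normalized counts of 5.1 and 5.21 in untreated WT, 249 and 317 in treated WT, 93.6 and 59.2 in untreated Cfp1-/- and 585 and 674 in treated Cfp1-/- cells. Cd80, a ligand that costimulates T cells, had 55.2 and 33.4 in untreated WT, 452 and 391 in treated WT, 153 and 130.1 in untreated Cfp1-/- and 303 and 234 in treated Cfp1-/- cells, and the lines crossed. Slc6a13, a GABA transporter, and Ttll6, a tubulin polyglutamylase, had interactions of -2.50 and -2.65.

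In the treated level class the 8 genes above 0 were Nek3, Lrrk2, Snx9, Col6a5, Acad8, Pfkm, Rdm1 and Mmd, with interactions from 1.21 to 1.85. Lrrk2, a kinase linked to Parkinson's disease, had normalized counts of 251 and 437 in untreated WT, 79.9 and 156 in treated WT, 314 and 409 in untreated Cfp1-/- and 347 and 377 in treated Cfp1-/- cells. Treated WT libraries were the low ones. Snx9, a membrane-bending protein of endocytosis, fell less in Cfp1-/- cells, from 419 and 370.2 to 223 and 236, than in WT cells, from 475 and 497 to 99.6 and 126. The 8 below 0 were Zfp819, Hes1, Pacsin1, Eng, Phlda3, Lass5, Rfx1 and Gtse1. Hes1, a repressor induced by Notch, had normalized counts of 296 and 403 in untreated WT, 440.1 and 756 in treated WT, 290.2 and 269 in untreated Cfp1-/- and 209 and 188 in treated Cfp1-/- cells, and treated Cfp1-/- libraries were the lowest. Eng, the TGF-β coreceptor endoglin, went from 163 and 160.5 to 2271 and 1492 in WT and from 225 and 157 to 902 and 899 in Cfp1-/- cells. Lass5, a ceramide synthase, rose by 0.50 in WT and fell by 0.63 in Cfp1-/- cells on the log2 scale.

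Of the 24 gene lists, 28 of the 352 genes called with the block and without the run belonged to at least 1 and 324 to none. With no block and all runs, 6 of the 37 called genes belonged to a list, Gtse1, Bcl11a, Znrf3, Mycn, Tex15 and Cd68. In that fit the immediate-early, heat shock, pluripotency and imprinted lists had 0 called members, and 0.235% of tested genes were called. Interactions and calls in the account of the lists are from the fit with the block and without the run. There 2.23% of tested genes were called, and the median interaction of tested genes was 0.01. Among p53 targets, 36 were tested, 4 were called (11.1%), each below 0, and 30 of the 36 lay below 0, with a median of -0.34. The median response was 1.52 in WT and 1.17 in Cfp1-/- cells. Cdkn1a, the cyclin-dependent kinase inhibitor p21, had normalized counts of 131 and 226 in untreated WT, 1805 and 1655 in treated WT, 338 and 263 in untreated Cfp1-/- and 1294 and 1164 in treated Cfp1-/- cells. The untreated Cfp1-/- libraries lay above and the treated ones below those of WT. Its interaction was -1.31 (adjusted p = 0.0435 from edgeR with the block and without the run, 0.229 with neither). Phlda3, an inhibitor of Akt, had normalized counts of 304 and 395 in untreated WT, 1100.3 and 1207 in treated WT, 426 and 439.5 in untreated Cfp1-/- and 719 and 645 in treated Cfp1-/- cells, and Lif, the cytokine that maintains ES cells, had 69.7 and 69.8 in untreated WT, 537 and 491 in treated WT, 190.1 and 189 in untreated Cfp1-/- and 619.9 and 510.0 in treated Cfp1-/- cells. The interactions were -1.13 for Phlda3 and -1.35 for Lif. They were called by edgeR with the block and not without it (adjusted p = 0.152 and 0.114). Mdm2, the ubiquitin ligase of p53, and Btg2, an antiproliferative protein, had interactions of -0.33 and -0.69 that were not called.

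Trp53 and Mdm4 were named after their values were seen. Trp53, which encodes p53, had normalized counts of 2473 and 2283 in untreated WT, 2636 and 2286 in treated WT, 4669 and 4324 in untreated Cfp1-/- and 3408 and 2718 in treated Cfp1-/- cells. It was higher in Cfp1-/- cells, by 0.95 without and 0.31 with doxorubicin on the log2 scale. Its interaction was -0.64 (adjusted p = 0.047 from edgeR with the block and without the run, 0.348 with neither). Mdm4, an inhibitor of p53, had normalized counts of 5372 and 5319 in untreated WT, 9788 and 6553 in treated WT, 6575 and 5983 in untreated Cfp1-/- and 4899 and 4975 in treated Cfp1-/- cells. Treated WT replicate 1 was the highest, and the replicate numbers gave interactions of -1.29 and -0.57.

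Immediate-early genes, the transcription factors and feedback genes that growth factors and stress switch on within minutes, had 30 tested members and a median of -0.40. Of these, 20 lay below 0 and 3 were called (10%), Egr1, Klf10 and Arc, all below 0. Arc, a synaptic protein induced by activity, had normalized counts of 317 and 262 in untreated WT, 908 and 839 in treated WT, 335 and 244 in untreated Cfp1-/- and 592 and 383 in treated Cfp1-/- cells, and Klf10, a TGF-β-induced repressor, had 2182 and 1759 in untreated WT, 2488 and 3118 in treated WT, 1290.5 and 1511 in untreated Cfp1-/- and 1193 and 976 in treated Cfp1-/- cells. For Klf10 replicate numbers 1 and 2 gave -0.31 and -1.46 with all runs. Atf3 and Dusp1, at 1.51 and 1.06, were not called. Of 18 heat shock genes, 2 were called (11.1%), Hspb8 and Dnajb1, small and co-chaperone proteins, at -1.07 and -0.80, and the median was -0.16.

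Pluripotency genes lay on both sides of 0, with 14 of 27 above. Of the 27, 2 were called (7.41%), Tdgf1, the Nodal coreceptor cripto, at 0.69, and Klf2, a factor of naive ES cells, at -1.12. The median interaction was 0.02, beside median responses of -1.40 in WT and -1.33 in Cfp1-/- cells. Pou5f1 and Nanog were at 0.02 and 0.11 and were not called (adjusted p = 0.965 and 0.851 from edgeR). Among 31 lineage regulators, 2 were called (6.45%), Bcl11a and T (brachyury), the mesoderm factor, and the median was -0.43. T had normalized counts of 42.5 and 167 in untreated WT, 13.1 and 13.7 in treated WT, 21.3 and 22.8 in untreated Cfp1-/- and 34.7 and 35.7 in treated Cfp1-/- cells. Its untreated WT libraries were far apart and its interaction was 3.35 (adjusted p = 0.0355 from edgeR with the block and without the run, 0.167 with neither).

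Of 46 Wnt pathway genes 1 was called (2.17%), Znrf3. Rnf43, its close relative, had an interaction of 1.68 that was not called, and the median was 0.22. Among 36 Nodal and BMP genes, Tgfb2 and Tdgf1 were called (5.56%), and of 23 FGF-ERK feedback genes Il17rd, a membrane inhibitor of FGF signalling, was called (4.35%), at 0.97. Their medians were -0.01 and -0.13. Of 11 Myc family genes Mycn was called (9.09%), and the median was 0.19. Of 25 cell cycle entry genes, Cdkn1a and Cdkn1c were called (8%), in opposite directions, and the median was 0.02. Cdkn1c, the imprinted inhibitor p57, had normalized counts of 554 and 861 in untreated WT, 836 and 1993 in treated WT, 82.5 and 176 in untreated Cfp1-/- and 474 and 613 in treated Cfp1-/- cells. Its replicates of a group differed widely, and it was called only with both the block and the run left out. Its interaction was 1.16 (adjusted p = 0.046 from edgeR with the block and without the run, 0.579 with neither).

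Imprinted genes had 31 tested members, of which 4 were called (12.9%), with a median of 0.24. Grb10, an adaptor that restrains growth, Cdkn1c and Ppp1r9a, a neuronal actin-binding protein, lay above 0. Usp29, a deubiquitinase, lay below 0. Grb10 had normalized counts of 6048 and 8658 in untreated WT, 4921 and 6393 in treated WT, 1529 and 1732 in untreated Cfp1-/- and 2172 and 2488 in treated Cfp1-/- cells, and Usp29 had 19.5 and 28.1 in untreated WT, 152 and 160.5 in treated WT, 219 and 461 in untreated Cfp1-/- and 341 and 477 in treated Cfp1-/- cells. Both differed between the lines in either state, Grb10 lower and Usp29 higher in Cfp1-/- cells. Of 32 germline and 2-cell genes 1 was called (3.12%), Tex15, with a median of -0.24. Of 42 DNA repair genes, with a median of 0.07, 1 was called (2.38%), Nbn, a subunit of the break-sensing MRN complex, at 0.79, with normalized counts of 1718 and 1995 in untreated WT, 895 and 1056 in treated WT, 686 and 799.5 in untreated Cfp1-/- and 673 and 661 in treated Cfp1-/- cells.

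The lists of the integrated stress response (20 tested), interferon response (27), cholesterol synthesis (25), replication-dependent histones (32), H3K4 methylation (24) and DNA methylation (21) had 0 called members by edgeR, with medians from -0.06 to 0.25. At an unadjusted p-value under 0.05 in the same fit they had 6, 5, 3, 3, 6 and 3 members, in that order. Of all tested genes, 2644 (16.8%) lay under it in that fit. DESeq2's Wald test called 0 in each list. With no block and all runs these 6 lists had 0 called members too. Histone genes share near-identical sequence, so their counts are less certain.

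Markers of other cell types moved in part with the called genes, and their part in the results was not tested. In bulk RNA, fewer cells of a type and less RNA per cell cannot be told apart. Of 13 blood and macrophage markers tested, Cd68 and Laptm5 were called below 0 and Vav1, a signalling protein of blood cells, above 0 (23.1%), with a median of -0.39. The 6 such genes of the shorter marker set found in the tables summed to 412 and 293 normalized counts in untreated WT, 1362 and 974 in treated WT, 1099 and 833 in untreated Cfp1-/- and 963 and 901 in treated Cfp1-/- libraries. Most of each sum came from Cd68 and Laptm5, both called below 0. The sums therefore give no view of the cell type apart from these calls. Of the same set, Ptprc, Csf1r and Tyrobp had at most 17 counts in any library. Itgam had at most 96, with 7.3 to 39.1 normalized counts in WT and 64.9 to 92.5 in Cfp1-/- libraries. Of 15 fibroblast markers, with a median of 0.04, Col1a1, a collagen chain, was called (6.67%), at 2.74, with normalized counts of 90.9 and 55.2 in untreated WT, 366 and 201 in treated WT, 13 and 5.07 in untreated Cfp1-/- and 205 and 237 in treated Cfp1-/- cells. Of other markers of these cells, Col3a1 had at most 73 counts in any library, and Postn, Dcn and Lum at most 27. The 7 markers of the shorter set summed to 222 to 515 normalized counts in WT and 74.2 to 359.6 in Cfp1-/- libraries. Of 19 neural genes Snap25, a synaptic vesicle fusion protein, was called (5.26%), at 1.79, and the median was -0.22. Of the 16 extraembryonic endoderm and 9 trophectoderm genes, 0 were called by edgeR or DESeq2, and their medians were -0.35 and -0.51. Of them, 3 and 2 had an unadjusted p-value under 0.05 in edgeR, against 16.8% of all tested genes.

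**Figure D5:**
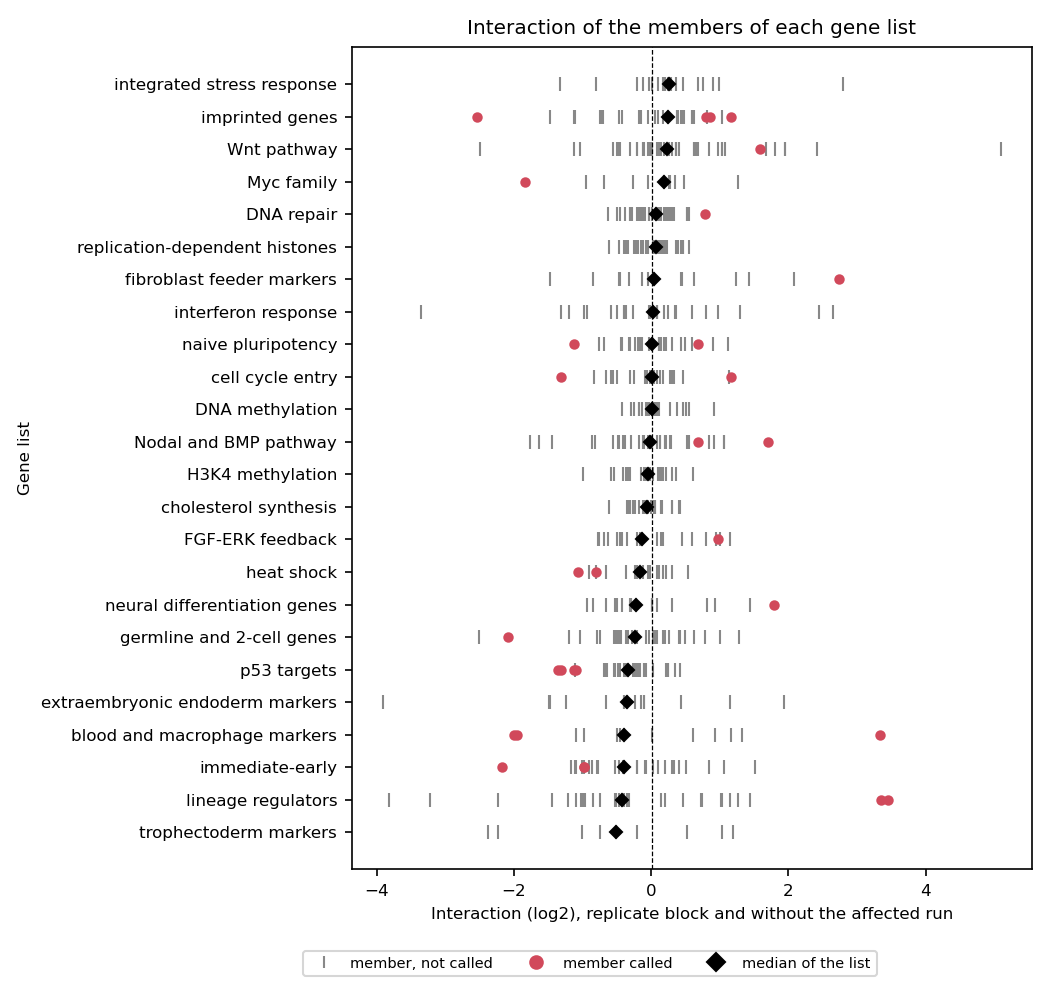
Interaction (log2, horizontal axis) of every tested member of 24 gene lists, from the edgeR fit that gave 352 calls; grey ticks are members that were not called, red points are called members, diamonds are list medians and the dashed line is the median of all tested genes. The medians lie between -0.51 and 0.25, and the 4 called p53 targets and 3 called immediate-early genes all lie below 0.

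Features that did not enter the sorting were compared as descriptions, with genes called with the block and without the run. The median number of CG dinucleotides in the 250 bases before the start was 11.5 for the 352 genes and 13 for all tested genes. By class it was 13 for the untreated level, 11 for the treated level and 10.5 for both. The shares with at most 2 CG were 5.3%, 10.5% and 9.03%, against 9.89% of all tested genes. Genes with a positive interaction had the longer median spans. The median span was 62.7 kb, 61.7 kb and 66.3 kb in the untreated level, treated level and both classes above 0, and 18.1 kb, 14.9 kb and 29.7 kb below 0, against 22.7 kb for all tested genes. Of the 37 genes, those above 0 had a median span of 118 kb and those below 0 of 20.9 kb. Over all tested genes, the median interaction was -0.08 for spans under 10 kb and 0.15 for spans of 100 kb or more in that fit. In replicate number 1 these medians were 0.02 and 0.03, and in replicate number 2 they were -0.16 and 0.27, so the trend over all genes was present in 1 of 2 replicate numbers.

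Chromosome 8 held 35 of the 352 genes among its 821 tested genes (4.26%), the highest share of any chromosome, against 2.23% over all. They included Tex15, Nek3, Tbc1d9, Rfx1, Arhgef10, Klf2 and Dnajb1. The other chromosomes lay between 0% (Y, with 8 tested genes) and 3.09%. Within the lost region 16 of the 352 genes were found. Chromosomes 19 and X, which hold most of that region, had shares of 1.47% and 1.38%, below that over all.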

How the data were processed

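RNA depleted of ribosomal RNA was sequenced from 16 samples. The deposited raw table holds counts per gene, which the authors made with STAR 2.2.1 on mm9 (NCBIM37) and HTSeq-count in stranded union mode over Ensembl exons, with no normalization. The deposited normalized table holds a signal, the summed count divided by a DESeq size factor. Both hold 22375 genes, of which 22324 were named from the annotation. Technical replicates were summed. Precision was limited by the number of libraries, 2 per group.

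edgeR 4.0.16 in R 4.3.3 (filterByExpr, TMM, a coefficient per group, glmQLFit, glmQLFTest, Benjamini-Hochberg over all tested genes) gave every contrast, and standard errors came from the F statistic. The scripts were tested on simulated data. DESeq2 1.42.0, other scalings, no filter and single libraries left out were alternatives. Same-numbered libraries deviated together (the 6 correlations between groups were 0.140 to 0.451). With 2 libraries per group, each correlation rests on 1 difference in each group, so it cannot show that the numbers were paired. No source states what a number shares. The fits with the block assume a pairing, and the fits with no block do not.

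Named were all 37 called genes, with every library's value for up to 6 per class outside the lost region that were also called with the block; up to 8 per class and direction called with the block and without the run at a mean of 200 normalized counts; called list members; and 7 reference genes. Contrast, lists and rules were chosen with earlier results of these data known. Promoter windows came from the NCBIM37 genome, 250 bases before the annotated 5′ end, which need not be the start used. Signal tracks were not used here.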

Additional observations from a re-analysis of the deposited data

Results flagged for a closer look

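The response to doxorubicin differed between the lines, by edgeR's interaction test, in the 37 genes described above. Each is given here with its interaction on the log2 scale. Below 0, with a smaller rise, a larger fall or a fall in place of a rise in Cfp1-/- cells, stood Nod1 (-3.32), Myo7a (-3.03), Cyp4f39 (-2.91), 1700048O20Rik (-2.66), Zfp750 (-2.66), Ablim1 (-2.42), Ly6g6e (-2.40), Ankrd35 (-2.11), Galnt6 (-2.02), Tex15 (-2.01), Cd68 (-1.94), Xaf1 (-1.78), Mycn (-1.76), Scn3b (-1.74), Arntl2 (-1.68), Epb4.1l4b (-1.49), Sdc4 (-1.23), Nucb1 (-1.17) and Gtse1 (-1.06). Above 0 stood Pkdcc (4.96), Myo3b (4.17), Bcl11a (3.51), Rfx4 (3.40), Fxyd6 (2.58), Plxnc1 (2.56), Catsperg1 (2.45), Abca1 (2.26), Sned1 (2.13), Sfmbt2 (2.05), Pdzd2 (1.95), Mctp2 (1.91), Nek3 (1.86), Znrf3 (1.66), Tbc1d9 (1.65), Acad8 (1.36), Pitpnc1 (1.36) and Pfkm (1.26). Groups of 2 libraries are too small for a search for single outlying libraries.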

How the results depend on the processing

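The number of genes called for the interaction, 37, was 31 with DESeq2's size factors, 35 with total count scaling, 39 without the affected run and 39 from first technical replicates alone. It was 220 with DESeq2's Wald test, 133 with no filter on low counts, 243 with the replicate block and 352 with the block and without the run. Leaving out each replicate in turn gave 0 to 13. The replicate block gave 104 genes of the untreated level class, 41 of the treated level class and 98 of both. Total count scaling gave 1 gene of the treated level class. Leaving out each replicate in turn gave 0 to 6 of the untreated level class, 0 to 1 of the treated level class and 0 to 7 of both. Classes set by a log2 difference of at least 1 held 25 of the untreated level, 5 of both and 2 of neither. The median interaction over all tested genes was 0.005, and -0.094 with total count scaling. No called gene changed sign under these alternatives. Of the 37, 31 stayed called with DESeq2's size factors, 30 with total count scaling and 29 from first technical replicates alone, and the cause was not tested. Reference genes that were not called changed sign: Pou5f1 (0.01; -0.09 with total count scaling, -0.02 from first technical replicates alone, and -0.19 to 0.11 with each replicate left out), Nanog (-0.26 to 0.73) and Cxxc1 (-1.10 to 1.19). The common dispersion was 0.0304, and 0.0163 with the replicate block. With 2 libraries per group, small interactions were not detectable.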
